A study of Mus musculus with 22 samples.

Results

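The genes described here are 32 genes that mark B cells or serve them, read in mouse lung 24 hours after Mitsui7, a multiwalled carbon nanotube, was instilled into the airways. The members form a named list and were found on the array through the RefSeq accession of each probe, and a gene with several probes was read on the probe with the highest mean intensity. All 32 were found, among 20018 named genes on the array, and all 32 were among the 16426 genes called expressed. A gene counted as expressed where its Cy5 signal exceeded a background limit, set from negative control spots, on 80% or more of the arrays in any group. Right lung RNA came from female C57BL/6 mice, 8 weeks old, that received 40 µl under anaesthesia. Controls (5 mice) received the vehicle alone, 0.9% NaCl with 10% BAL (bronchoalveolar lavage) fluid, and the others received 18 µg (6 mice), 54 µg (5 mice) or 162 µg (6 mice) of Mitsui7 in a single instillation. Each array carried lung RNA of 1 mouse in Cy5 and a universal mouse reference RNA from 11 cell lines in Cy3. A level is therefore a log2 ratio of lung to reference, and levels of different genes are not set against each other.

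B cells are lymphocytes that recognise antigen through a surface immunoglobulin whose signal is passed on by the paired chains Cd79a and Cd79b, and then by tyrosine kinases, the adaptor Blnk and the phospholipase Plcg2. The transcription factors Ebf1 and Pax5 set and hold the B cell programme, while Bach2 holds back the turn to antibody-secreting plasma cells. In the lung, B cells are a minority that sits among blood vessels and airways and enters from the circulation.

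Between 70.4% and 77.5% of probes were above that limit in controls. The ranges of the other groups were wider, at 56.8% to 77.9% (18 µg), 57.0% to 78.9% (54 µg) and 50.3% to 83.5% (162 µg). The 4 arrays with the fewest probes above the limit were 18 µg replicate 6, 54 µg replicate 3 and 162 µg replicates 4 and 6. On these 25 to 31 of the 32 member probes were above the limit. All 4 were on slides 3 and 6, which held 0 controls. Slide and dose were therefore not separated in these ranges, and the part of each was not tested. The median log2 ratio of 13 genes of lung epithelium and endothelium lay between 5.40 and 7.19 on every array. Control replicate 2 stood apart in 14 neutrophil genes, with a median log2 ratio of 3.56 against 1.12 to 1.55 in the other controls. The probe for Cd180, a Toll-like receptor relative on B cells, was not well above its local background on any array by the scanner software's flag, so no change is given for it, although it stays in the counts over 32. The probes for Pax5 and Fcrl1 were well above background on only 8 of 22 arrays each, that for Blk on 11 and that for H2-DMb2 on 14. RNA of whole lung was measured, so fewer B cells and less RNA per B cell cannot be told apart.

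Promoter windows from RefSeq (GRCm38.p6, 250 bases before to 50 after a transcription start) were matched by symbol for 27 members, which had 32 windows. Cd79b, Blk, Cd40, Cxcr5 and Ms4a1 had no entry. On both strands of each window 5 motifs known from B cell promoters and enhancers were searched. The octamer ATGCAAAT, read by Oct factors with the coactivator Pou2af1, was found in 2 of 32 member windows and in 1.74% of all 32851 windows. The sequence GAGGAAGT, read by PU.1 and Spi-B, was found in 4 member windows and in 3.2% of all. The E-box CAGGTG was found in 14 member windows and 20.2% of all, the EBF1 motif in 1 and 0.904%, and the NF-kappaB motif in 0 and 0.155%. No 2 matches in member windows overlapped. Of the 9 members significantly lower at 162 µg, Ms4a1 had no window and 5 had a match. Members not called lower had matches too, among them Cd79a, Cd22 and Cd37. The share with any of the 5 motifs was not counted over all windows. For the 5 lower members with a match, bases -200 to -1 before the start are shown to give the sequence around it. They run 5′ to 3′ along the gene, with the matches in capitals. The octamer starts at -45 in Vpreb3 and at -130 in Blnk, the PU.1 and Spi-B letters at -49 in Cd72, and the E-box at -160 in Blnk, -88 in Cr2 and -69 in Fcrla.
Vpreb3, chr10:75948100-75948299, plus strand: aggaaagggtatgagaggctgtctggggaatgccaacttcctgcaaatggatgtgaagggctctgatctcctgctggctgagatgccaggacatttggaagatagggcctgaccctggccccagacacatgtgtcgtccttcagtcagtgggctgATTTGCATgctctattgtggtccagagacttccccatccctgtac
Blnk, chr19:40994222-40994421, minus strand: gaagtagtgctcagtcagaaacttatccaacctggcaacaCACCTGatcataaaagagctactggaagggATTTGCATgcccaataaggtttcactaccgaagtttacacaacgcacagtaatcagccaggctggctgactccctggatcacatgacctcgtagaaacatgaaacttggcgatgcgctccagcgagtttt
Cd72, chr4:43454627-43454826, minus strand: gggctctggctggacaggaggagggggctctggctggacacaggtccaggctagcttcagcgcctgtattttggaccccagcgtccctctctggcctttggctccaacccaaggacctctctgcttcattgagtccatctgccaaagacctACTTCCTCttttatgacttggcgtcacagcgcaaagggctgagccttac
Cr2, chr1:195176720-195176919, minus strand: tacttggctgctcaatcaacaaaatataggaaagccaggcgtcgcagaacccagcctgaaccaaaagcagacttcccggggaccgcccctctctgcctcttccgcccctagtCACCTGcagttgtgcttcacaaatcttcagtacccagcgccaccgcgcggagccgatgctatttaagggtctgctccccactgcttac
Fcrla, chr1:170927584-170927783, minus strand: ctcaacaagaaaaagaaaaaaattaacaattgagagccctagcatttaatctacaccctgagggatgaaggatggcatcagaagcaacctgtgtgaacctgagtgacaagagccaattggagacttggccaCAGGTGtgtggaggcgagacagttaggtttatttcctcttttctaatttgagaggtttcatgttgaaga
The windows of Spib, Bach2 and H2-Ob, also lower at that dose, held none of the 5. A match is a run of letters and was not tested as a binding site.

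The fitted changes of the B cell genes had both signs at 18 µg and were mostly negative at 54 and 162 µg. At 18 µg 19 of 32 had a positive and 13 a negative fitted change, with a median log2 change of 0.07. At 54 µg 30 of 32 were negative (median -0.32) and at 162 µg 28 of 32 (median -0.39), while the medians over all expressed genes were -0.02, -0.01 and -0.01. Without normalization the member median at 18 µg turned negative, at -0.25, where the median of all expressed probes itself moved to -0.30. Changes were fitted in limma with dose and slide as terms over all arrays, with Benjamini-Hochberg adjusted p values over all 55681 probes. A gene is called where the adjusted p was at most 0.05 and the change at least 1.5-fold. At 162 µg 9 members (28.1%) were called lower, where 3.53% of all expressed genes were, and 0 were called higher, where 3.34% were (6.87% in either direction). At 54 µg 0 members were called lower (0.14% of all expressed genes) and 0 higher (0.25%), although 12 of 32 members were lower at an unadjusted p below 0.05, as were 1299 of all 16426 expressed genes. At 18 µg 0 were called lower (1.44%, with 3 lower at an unadjusted p below 0.05) and 1 higher (0.633%, with 7 higher at that p). Of all expressed genes 2169 were lower and 1499 higher at 18 µg at an unadjusted p below 0.05. The 9 called lower at 162 µg came from 6 of the 7 role groups, the exception being the receptors of survival, homing and co-stimulation. Their number was 3 with arrays centred on their median, 5 with the Cy5 channel alone, 0 without normalization, 5 without control replicate 4, 5 without 162 µg replicate 1 and 11 without the 4 arrays with the fewest probes above the limit. The 9 fitted changes lay between -1.92 and -0.78 without normalization, and those of the 6 genes not called with arrays centred on their median lay between -1.11 and -0.76 there.

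**Figure D1:**
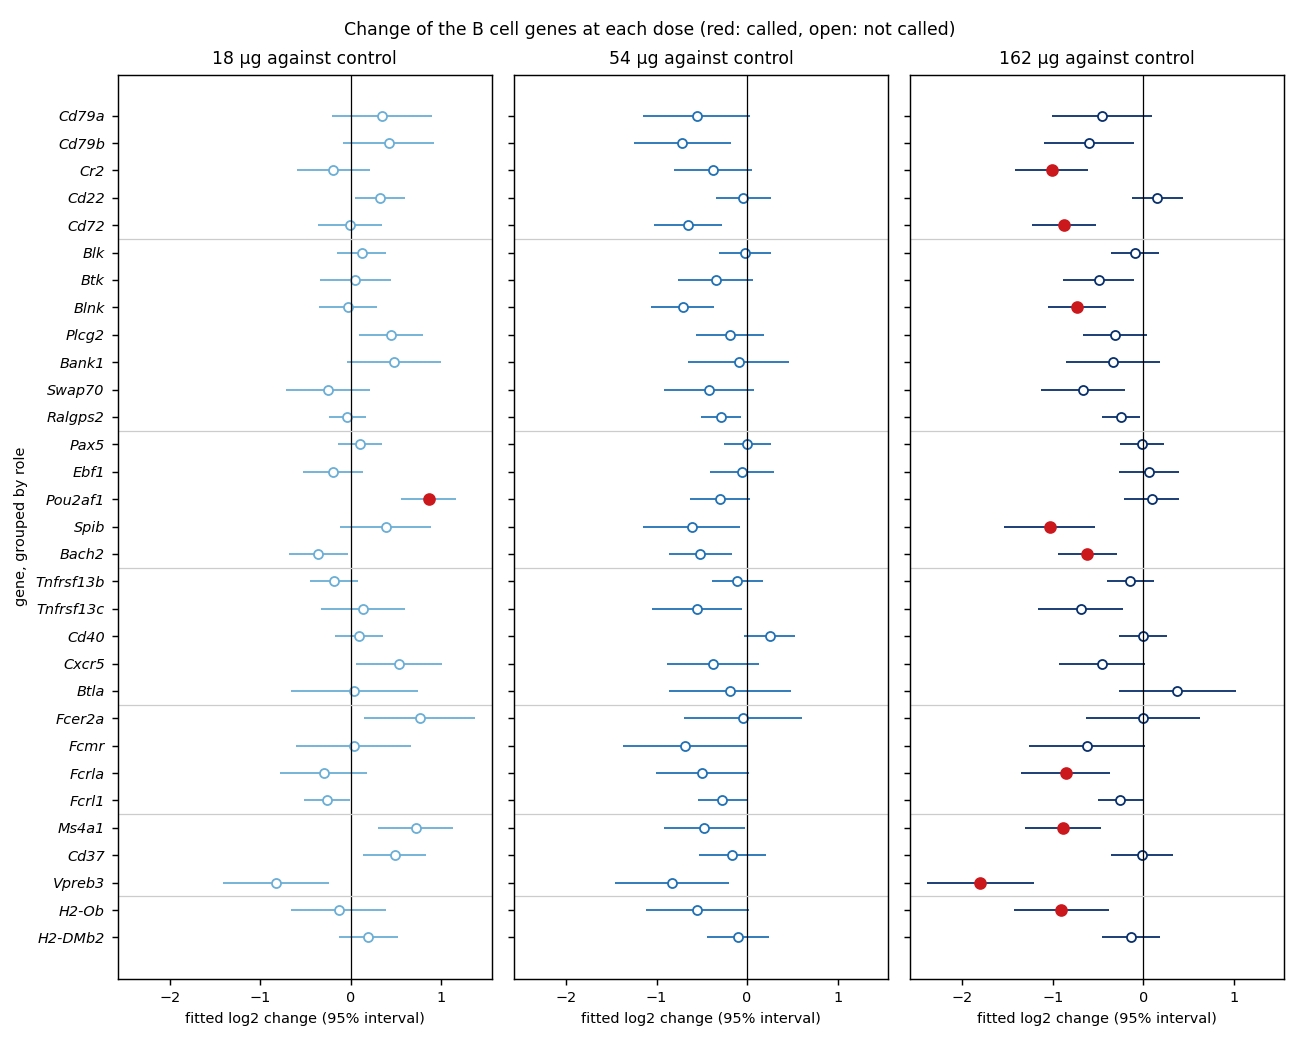
Fitted log2 change against control (x axis, with its 95% interval) of 31 B cell genes (y axis, grouped by role from the antigen receptor complex at the top to antigen presentation at the bottom) at 18, 54 and 162 µg, with called genes in red and others open. Cd180 is left out, being not well above background. The 9 red points at 162 µg lie between -1.80 and -0.62, and the 1 red point at 18 µg is Pou2af1.

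In the antigen receptor complex and its co-receptors, 2 of 5 genes were called lower at 162 µg. Cr2, a receptor for complement fragments bound to antigen, had log2 ratios of 1.59, 1.93, 2.07, 1.32 and 1.37 in controls. At 162 µg Cr2 ran from -0.06 to 0.76 with a median of 0.64, below every control in 6 of 6 mice. There the Cr2 probe was well above background on 5 of 6 arrays, with a lowest Cy5 signal of 81. Its fitted log2 change was -1.02 (SE 0.19, adjusted p = 0.0049), 2.02-fold lower. At 54 µg its ratios were 1.34, 1.08, 1.08, 1.24 and 0.91, of which 4 of 5 lay below every control, and the fitted change was -0.38 (adjusted p = 0.668). At 18 µg it ran from 0.51 to 1.70 and overlapped the controls. A second Cr2 probe gave -0.61 (adjusted p = 0.0337) at 162 µg. Cd72, an inhibitory co-receptor, was at -0.06, -0.36, -0.04, -0.39 and -0.59 in controls and from -1.67 to -0.74 at 162 µg, with a median of -1.12. The 6 mice at 162 µg were again below all controls, and the change was -0.88 (SE 0.17, adjusted p = 0.0050). At 54 µg 4 of 5 mice were below all controls, at -0.76, -1.25, -0.62 and -0.95 against -0.28 in the other, with a change of -0.66 (adjusted p = 0.186). The second probe of Cd72 gave -0.71 at 162 µg (adjusted p = 0.0308).

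The signalling chains themselves were not called against control at any dose. Cd79a was at 1.89, 0.47, 1.61, 0.48 and 0.82 in controls, and ran from 0.24 to 0.90 with a median of 0.55 at 162 µg. The groups overlapped, and the change was -0.46 (SE 0.26, 95% interval -1.01 to 0.10, adjusted p = 0.405). The Cd79a probe was dim, with a median Cy5 signal of 159.5 in controls and 129 at 162 µg. At 162 µg its lowest signal was 84.5 and it was well above background on 5 of 6 arrays, so a fall could be understated. Cd79b was at 1.30, 0.09, 0.46, 0.87 and 1.19 in controls and from -0.14 to 0.32 (median 0.18) at 162 µg, with 2 of 6 mice below all controls and a change of -0.60 (SE 0.24, 95% interval -1.10 to -0.10, adjusted p = 0.173). Cd22, an inhibitory receptor that binds sialic acid, had a change of 0.15 (95% interval -0.13 to 0.43) at 162 µg.

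Among the 7 kinases, adaptors and enzymes only Blnk was called. This adaptor brings Btk and Plcg2 together once the receptor is engaged. Blnk was at -1.57, -2.05, -1.49, -1.93 and -2.25 in controls, at -2.00, -2.67, -2.97, -2.82 and -2.54 at 54 µg, and from -3.17 to -2.54 with a median of -2.80 at 162 µg. All 6 mice at 162 µg and 4 of 5 at 54 µg lay below every control. The change was -0.73 (SE 0.15, adjusted p = 0.0084) at 162 µg, -0.71 (SE 0.16, adjusted p = 0.0976) at 54 µg and -0.03 (SE 0.15) at 18 µg. Swap70, which binds phosphoinositides in activated B cells, was below all controls in 5 of 6 mice at 162 µg with a change of -0.67 (adjusted p = 0.0895). Btk, the kinase lost in X-linked agammaglobulinaemia, had a change of -0.49 (adjusted p = 0.145), and Blk, a Src family kinase of B cells, one of -0.09 (95% interval -0.36 to 0.18). The scaffold Bank1 had -0.34, Plcg2 -0.31 and Ralgps2, an exchange factor for Ral proteins, -0.25, with adjusted p of 0.557, 0.359 and 0.175. All 7 fitted changes at 162 µg were negative.

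The transcription factors split. Spib, an Ets family factor of B cells and plasmacytoid dendritic cells, was at 2.46, 1.94, 2.59, 2.08 and 2.26 in controls, at 2.19, 2.27, 0.99, 1.79 and 1.57 at 54 µg and from 0.46 to 1.83 (median 1.20) at 162 µg. At 162 µg 6 of 6 mice lay below every control, and the change was -1.03 (SE 0.24, adjusted p = 0.0155). The call on Spib was lost without control replicate 4 (-0.96, adjusted p = 0.0517) or 162 µg replicate 1 (-0.97, adjusted p = 0.0556), in a range of adjusted p from 0.0031 to 0.0556 over single mice left out. Bach2 was at 1.32, 1.38, 1.15, 0.85 and 1.06 in controls and from 0.09 to 0.82 with a median of 0.56 at 162 µg, again below every control in 6 of 6 mice. Its change was -0.62 (SE 0.15, adjusted p = 0.0233) and was near the thresholds. The call on Bach2 was lost without any one of control replicates 1, 3 and 4 and 162 µg replicates 1, 2, 5 and 6, with changes of -0.64 to -0.55 and adjusted p up to 0.0830. A second Bach2 probe gave -0.06 (adjusted p = 0.904), so the 2 probes of Bach2 disagreed. Ebf1 had a change of 0.06 (95% interval -0.27 to 0.39) and Pax5 one of -0.02 (95% interval -0.26 to 0.23) at 162 µg. The Pax5 probe was well above background on only 2 arrays of each group, so a fall could hardly be seen there.

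Pou2af1, the coactivator that Oct factors need in B cells, was the 1 member called higher, and it was so at the lowest dose. Its log2 ratios were -2.32, -3.10, -2.72, -3.00 and -3.00 in controls and ran from -2.69 to -0.87 with a median of -2.11 at 18 µg. There 5 of 6 mice lay above every control, and the change was 0.86 (SE 0.15, adjusted p = 0.0142), 1.81-fold higher. At 54 µg its ratios were -2.34, -3.07, -3.34, -3.28 and -3.04 with a change of -0.30, and at 162 µg it ran from -3.34 to -2.30 with a change of 0.09 (95% interval -0.21 to 0.40). The call at 18 µg was lost without control replicate 1 (0.74, adjusted p = 0.0750) or control replicate 5 (0.80, adjusted p = 0.0612), in a range of adjusted p from 0.0073 to 0.0750 over single mice left out. It was also lost with 6 of 17 other ways of processing, and the change under these 17 lay between 0.27 and 0.87. The 17 include leaving out the filter on dim probes and leaving out the fold threshold, where no call can be lost. On the 4 slides that held both a control and an 18 µg array, Pou2af1 was higher at 18 µg on each, by 0.41 to 1.45. The call was made on these same arrays, so this follows in part from the selection.

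None of the 5 receptors of survival, homing and co-stimulation was called against control. Tnfrsf13c, the receptor through which BAFF keeps mature B cells alive, had a change of -0.69 at 162 µg (SE 0.22, adjusted p = 0.0764) and 5 of 6 mice below all controls. A second Tnfrsf13c probe gave -0.03 (adjusted p = 0.952), so its probes disagreed too. Cxcr5, which guides B cells to follicles along Cxcl13, had -0.45 (adjusted p = 0.309). Cd40, which receives help from T cells, had -0.00 (95% interval -0.27 to 0.26), Tnfrsf13b, which binds BAFF and APRIL, -0.14 and the inhibitory receptor Btla 0.37 (95% interval -0.27 to 1.02).

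Of the 4 Fc receptors and Fc receptor-like proteins, Fcrla was called lower at 162 µg. This intracellular protein binds immunoglobulin inside B cells. Fcrla was at 3.02, 2.46, 2.57, 2.22 and 2.17 in controls. The 5 mice with a value at 162 µg were at 1.74, 2.57, 1.21, 1.14 and 0.09, of which 4 lay below every control, and replicate 4 was left out because its spot was marked as an outlier. The Fcrla probe was well above background on 4 of those 5 arrays, with a lowest Cy5 signal of 81. The change was -0.86 (SE 0.23, adjusted p = 0.0381). The call on Fcrla was lost without any one of control replicates 1, 3, 4 and 5, 18 µg replicate 1 and 162 µg replicates 1, 3, 5 and 6, with changes of -0.97 to -0.70 and adjusted p up to 0.116. Fcmr, the receptor for IgM, had a change of -0.63 (SE 0.30, adjusted p = 0.293), and Fcer2a, the low-affinity IgE receptor, one of -0.00 (95% interval -0.63 to 0.62, 5 mice at 162 µg with a value). Fcrl1, an Fc receptor-like protein of the B cell surface, had -0.25 (adjusted p = 0.269).

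The largest change of any member was that of Vpreb3, a relative of the surrogate light chain that assembles with immunoglobulin in the B lineage. Vpreb3 was at 3.64, 3.79, 4.27, 4.43 and 3.82 in controls. It ran from 2.52 to 4.33 (median 3.09) at 18 µg, stood at 2.57, 2.95, 3.17, 2.32 and 3.90 at 54 µg and ran from 0.99 to 3.31 (median 2.21) at 162 µg. Below every control were 5 of 6 mice at 18 µg, 4 of 5 at 54 µg and 6 of 6 at 162 µg. Its change was -0.82 (SE 0.28, adjusted p = 0.147) at 18 µg, -0.83 (SE 0.30, adjusted p = 0.377) at 54 µg and -1.80 (SE 0.28, adjusted p = 0.0012) at 162 µg, 3.49-fold lower. Ms4a1 encodes the surface protein CD20, a common marker of B cells. It was at 0.42, -0.28, 0.29, 0.15 and 0.37 in controls, from 0.25 to 1.57 (median 0.53) at 18 µg, at 0.81, 0.13, -1.41, -0.49 and -0.68 at 54 µg and from -1.64 to -0.41 (median -1.01) at 162 µg. At 18 µg 5 of 6 mice were above every control, with a change of 0.72 (SE 0.20, adjusted p = 0.0775). At 162 µg 6 of 6 were below every control, with a change of -0.89 (SE 0.20, adjusted p = 0.0125). Cd37, a tetraspanin of B cells, had 0.49 (adjusted p = 0.148) at 18 µg and -0.02 (95% interval -0.36 to 0.33) at 162 µg.

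In antigen presentation, H2-Ob encodes a chain of the H2-O protein, which curbs peptide loading by H2-M. It was at 3.01, 2.86, 2.37, 1.69 and 2.18 in controls and from 0.81 to 2.19 with a median of 1.38 at 162 µg. Here 4 of 6 mice lay below every control and the groups overlapped. At 54 µg the spot of replicate 3 was dropped as an outlier, and the other 4 mice were at 2.37, 2.08, 1.63 and 1.42. The change at 162 µg was -0.91 (SE 0.25, adjusted p = 0.0396), and a second probe gave -0.90 (adjusted p = 0.0632). The call on H2-Ob was lost without any one of 13 mice, namely all 5 controls, 18 µg replicates 1, 2 and 6, 54 µg replicate 2 and 162 µg replicates 1, 2, 5 and 6, with changes of -1.01 to -0.79 and adjusted p up to 0.119. H2-DMb2, a chain of H2-M itself, had -0.14 (95% interval -0.46 to 0.18).

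**Figure D2:**
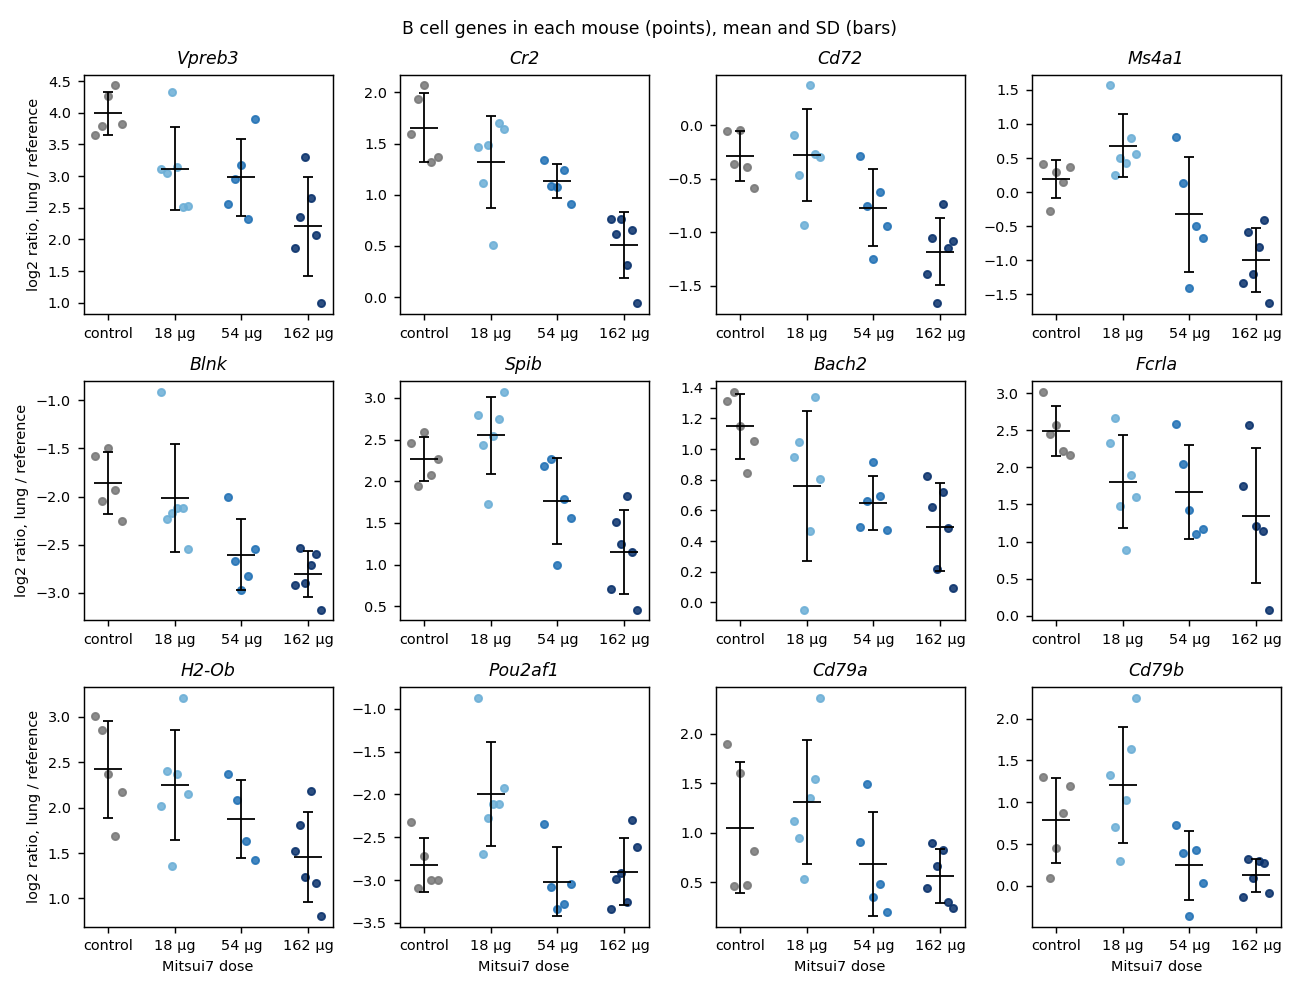
Log2 ratio of lung to reference RNA (y axis) in each mouse (points) by dose (x axis) for the 9 B cell genes called lower at 162 µg, Pou2af1, Cd79a and Cd79b, with bars for mean and SD and a separate y scale in each panel. In 7 of the 9 called lower, from Vpreb3 to Bach2, every point at 162 µg lies below every control, and the mean of Pou2af1 is highest at 18 µg.

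Every mouse at 162 µg lay below every control for 7 members, Vpreb3, Cr2, Cd72, Ms4a1, Blnk, Spib and Bach2, and 4.49% of all expressed genes had that pattern. No member lay above all controls in every mouse at 162 µg (3.72% of all expressed genes). At the lower doses no member had all its mice below every control (1.99% of all expressed genes at 18 µg and 1.8% at 54 µg) or above every control (1.42% and 1.51%). These counts use values not adjusted for slide. They include 162 µg replicates 4 and 6, whose slides, 3 and 6, held 0 controls. The other slides were shared between controls and dosed groups, so differences there could also be read within a slide. On 4 slides that held a control and a 162 µg array, all 9 called genes were lower at 162 µg on each slide. These 9 were called on the same arrays with slide as a term, so this follows in part from their selection. Uncalled members such as Cd79b, Btk and Swap70 were also lower on all 4, while Cd22 was lower on 2. The pattern was not counted over all expressed genes. Vpreb3 fell by 1.12 to 1.93 on the log2 scale, Ms4a1 by 0.78 to 1.35 and Bach2 by 0.53 to 0.63. For Fcrla 1 slide gave -0.0022.

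The test of 162 µg against 18 µg called 11 members (34.4%) lower, where 1.66% of all expressed genes were. It called 0 higher (3.34%, and 4.99% in either direction), with a member median of -0.61 against 0.01 over all expressed genes. The change was -1.61 for Ms4a1 (SE 0.19, adjusted p = 2.06e-04), 3.05-fold lower, and -1.42 for Spib (SE 0.22, adjusted p = 0.0016). All 6 mice at 162 µg lay below every mouse at 18 µg for Ms4a1, and 5 of 6 for Spib. The antigen receptor chain Cd79b was among the 11, at -1.02 (SE 0.22, adjusted p = 0.0139), with 5 of 6 mice below all those at 18 µg. Cd79a had -0.80 (SE 0.25, adjusted p = 0.0815). Also called were Cxcr5 (-0.99, adjusted p = 0.0120), Vpreb3 (-0.98, adjusted p = 0.0423), Cd72 (-0.87, adjusted p = 0.0043), Tnfrsf13c (-0.83, adjusted p = 0.0304), Cr2 (-0.82, adjusted p = 0.0144), Pou2af1 (-0.77, adjusted p = 0.0039), Plcg2 (-0.76, adjusted p = 0.0097) and Blnk (-0.71, adjusted p = 0.0087). Plcg2 ran from 0.49 to 1.01 at 18 µg and from -0.23 to 0.23 at 162 µg, with no overlap, while at 162 µg only 1 of 6 mice lay below every control. The calls on Tnfrsf13c and Vpreb3 were lost with 9 and 14 of 22 single mice left out, at changes of -0.84 to -0.66 and -1.05 to -0.71 and adjusted p up to 0.0949 and 0.114. The second Tnfrsf13c probe gave 0.02 (adjusted p = 0.954) in this contrast, and the median over both probes gave -0.40 (adjusted p = 0.0960). The calls on Cxcr5, Vpreb3 and Tnfrsf13c were also lost with 7, 6 and 6 of 17 other ways of processing. That on Blnk was lost with 4, those on Cd79b, Cr2 and Plcg2 with 3, on Cd72, Pou2af1 and Ms4a1 with 2 and on Spib with 1. Without the 4 arrays with the fewest probes above the limit, Cd79b had -0.73 (adjusted p = 0.0501), Plcg2 -0.71 (adjusted p = 0.0680) and Cxcr5 -0.78 (adjusted p = 0.0843). With slide as a random block the adjusted p was 0.0723 for Cxcr5 and 0.0711 for Vpreb3. The number called was 1 with arrays centred on their median and 0 without normalization. This contrast shares the 162 µg mice with the one against control, so the lists are not independent.

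Between 54 µg and 18 µg 1 member was called lower (0.0122% of all expressed genes) and 0 higher (0.0183%). It was Pou2af1, with a change of -1.16 (SE 0.15, adjusted p = 0.0193), and 4 of 5 mice at 54 µg lay below every mouse at 18 µg. That call was lost without control replicate 3 (-1.14), 18 µg replicate 4 (-1.11), 18 µg replicate 5 (-1.20) or 54 µg replicate 4 (-1.10), with adjusted p up to 0.0801, and with 8 of 17 other ways of processing. Ms4a1 had -1.19 (SE 0.20, adjusted p = 0.0541). Between 162 µg and 54 µg no member was called in either direction in limma, where 0% of all expressed genes were, and the member median was -0.06.

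**Figure D3:**
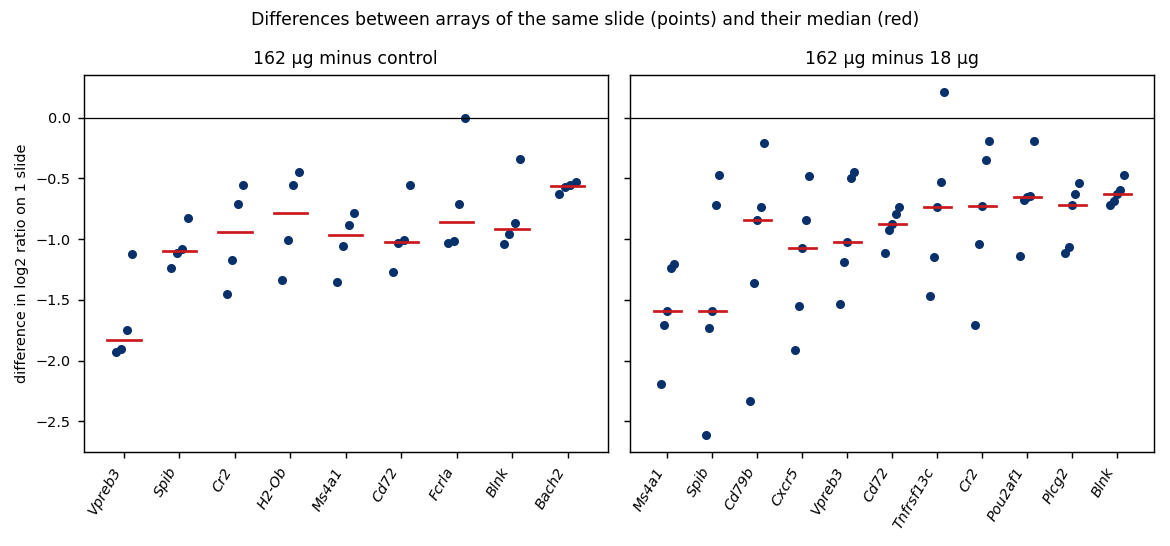
Difference in log2 ratio between arrays on the same slide (y axis, points) with the median in red, for the 9 genes called lower at 162 µg against control (left, 4 slides) and the 11 called lower at 162 µg against 18 µg (right, 5 slides). On the left all points lie below 0, with 1 for Fcrla at -0.0022, and on the right 1 point for Tnfrsf13c lies above 0, at 0.21. The genes shown were called on the same arrays.

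How the members varied beside dose was read from residuals after dose and slide, over 22 arrays with 12 residual degrees of freedom. Among 28 members without a missing value, the median Pearson correlation over 378 pairs was 0.13, against 0.0071 over all pairs of expressed genes, and 14% of member pairs exceeded 0.5 against 6.83% of all pairs. These pairs share arrays and probes of like signal, and the values are a description. Spib had the highest median correlation with the other members (0.44), followed by Fcmr (0.41), Bank1 (0.37) and Cd79b (0.33). Cd79a was most like Cd79b (0.79), Cd72 most like Btk (0.81) and Ms4a1 most like Swap70 (0.82). Vpreb3 (0.01), Pou2af1 (-0.08) and Ebf1 (-0.09) had medians near 0.

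Other genes of the B lineage were counted from lists that hold none of the 32. Of all expressed genes 3.53% were called lower and 3.34% higher at 162 µg, and 0.633% were called higher at 18 µg. In the list of the B cell receptor pathway 2 of 34 expressed genes (5.88%) were called lower at 162 µg and 0 higher. Among those lower was Rasgrp3, a Ras activator downstream of Plcg2, at -1.04 (SE 0.20, adjusted p = 0.0060). The median of that list was -0.08. Of 37 other B lineage genes 2 (5.41%) were lower at 162 µg, Cd55 (-0.91, adjusted p = 0.0240) and Stap1 (-0.64, adjusted p = 0.0210), with a list median of -0.11. At 18 µg 1 of the 37 (2.7%) was called higher. It was Irf4, which rises as B cells turn to plasma cells, at 0.95 (SE 0.21, adjusted p = 0.0334). Of 12 plasma cell genes 1 (8.33%) was called higher at 18 µg, Derl3, a protein of the endoplasmic reticulum, at 1.28 (SE 0.27, adjusted p = 0.0304). None of the 12 was called at 162 µg, where 1 was lower at an unadjusted p below 0.05. Of 13 ligands and follicle chemokines 2 (15.4%) were higher at 162 µg, Ccl19 (0.90, adjusted p = 9.29e-04) and Il6 (3.11, adjusted p = 0.0015). There 1 (7.69%) was lower, Flt3l (-0.60, adjusted p = 0.0230). Cxcl13, the ligand of Cxcr5, had 2.10 (SE 0.80, adjusted p = 0.154), and Tnfsf13b, which encodes BAFF, had 0.45 (adjusted p = 0.471). Of 6 germinal centre genes 1 (16.7%) was higher at 162 µg, Fas (0.61, adjusted p = 0.0132). The number of other B lineage genes called lower at 162 µg ranged from 0 to 5 over 16 alternatives.

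Markers of other cell types were called at 162 µg as well, where 3.53% of all expressed genes were called lower and 3.34% higher. All 13 expressed NK cell genes had negative changes, with a median of -0.66, and 4 were called lower, Klre1 (-1.22), Gzma (-1.38), Tbx21 (-0.70) and Eomes (-0.69), a share of 30.8%. The median log2 ratio of the NK list ran from 1.04 to 2.02 in controls and from 0.27 to 1.96 at 162 µg, and that of the B cell genes from 0.54 to 1.25 and from 0.09 to 0.70. Of 21 T cell genes 1 (4.76%) was called lower, Lck (-0.83, adjusted p = 0.0047), with a median of -0.16. Of 8 MHC class II genes 0 were called in limma, with 2 lower at an unadjusted p below 0.05, and their median was -0.37. Of 10 genes of plasmacytoid dendritic cells, which also express Spib, 1 (10%) was called lower, Bst2 (-0.93, adjusted p = 0.0106). Of 14 neutrophil genes 2 (14.3%) were higher, Il1r2 (2.36) and Lcn2 (1.65). The median of the neutrophil list ran from 1.88 to 4.17 at 162 µg against 1.12 to 3.56 in controls. Of 16 macrophage and monocyte genes 1 (6.25%) was higher, Marco (1.51). Of 6 erythroid and 13 lung epithelium and endothelium genes 0 were called in limma, with 1 and 0 lower at an unadjusted p below 0.05. Before normalization the summed Cy5 signal of the 32 B cell genes was 21968.5 to 45558.5 in controls and 5271.25 to 35717.5 at 162 µg, that of the NK genes 7821.5 to 18516.5 and 1680 to 10068, and that of the neutrophil genes 56134 to 318692 and 45889 to 539100. These signals include the slide background, so an absent marker does not read as 0, and the sums move with array brightness. The part of the other cell types and of array brightness in the changes of the B cell genes was not tested. Without control replicate 2, the control high in neutrophil genes, 8 members were called lower at 162 µg and the member median was -0.46.

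**Figure D4:**
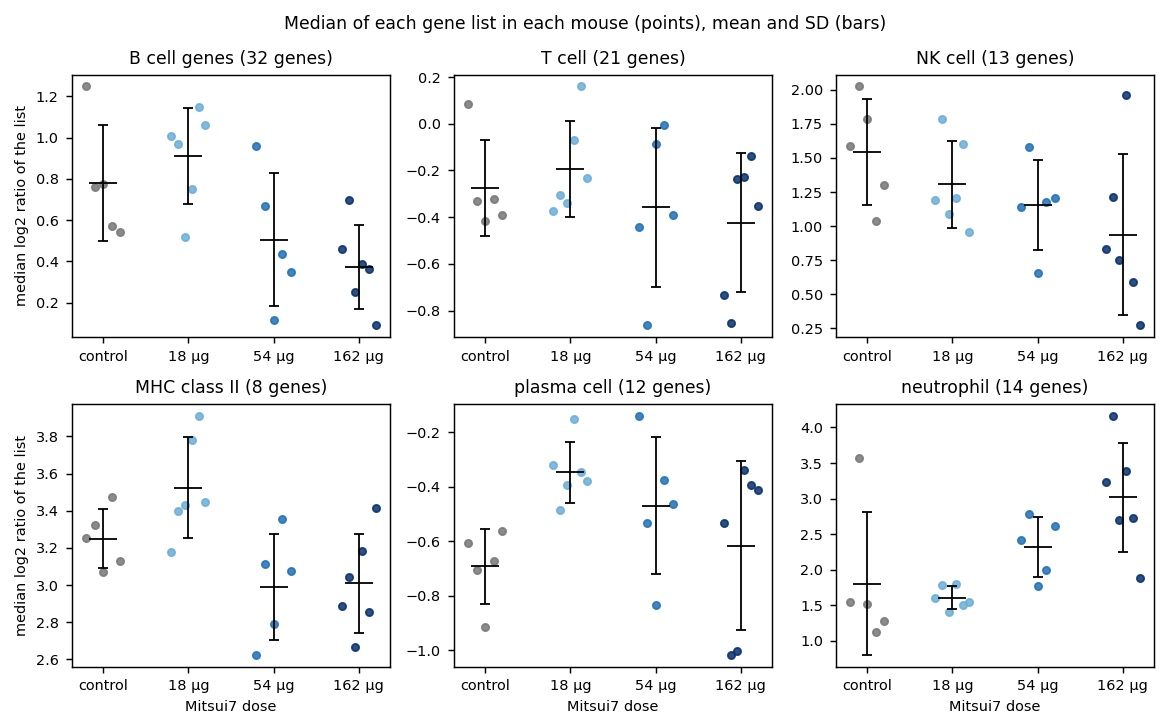
Median log2 ratio of each gene list (y axis) in each mouse (points) by dose (x axis), with bars for mean and SD and a separate y scale in each panel. Control and 162 µg mice overlap in all 6 lists. The B cell medians run from 0.54 to 1.25 in controls and from 0.09 to 0.70 at 162 µg, and the neutrophil medians of controls lie between 1.12 and 1.55 except for replicate 2 at 3.56.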

How the data were processed

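Lung RNA of 22 mice was measured on 2-colour Agilent arrays. The authors deposited intensity values for both dyes (spot medians, not normalized, background not subtracted) from the Feature Extraction software, version 10.7.3.1. The authors also deposited a log2 table of normalized ratios, used as an alternative.

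Log ratios of Cy5 over Cy3 were taken without background subtraction, spots marked as outliers were dropped, and each array was normalized by loess (span 0.3, all arrays in 1 dye orientation). The median over replicate spots gave 55681 probes. Background was set from 308 negative control spots (5% trimmed mean plus 3 trimmed SD). R 4.3.3, limma 3.58.1 and data.table (version 1.17.8) were used, with dose and slide (7 slides) as fixed terms and 12 residual degrees of freedom. Adjusted p values are from limma with Benjamini-Hochberg over all probes. The study's own F test was not run. The fit was tested on simulated data with planted changes larger than most of those called here. Recovery of smaller changes was not tested. Mice are separate animals, and the number of arrays limits the precision. Same-numbered samples were not taken as pairs.

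The 32 members and all other lists were chosen with earlier results of these data known. Values per mouse are given for members called against control, plus Cd79a, Cd79b and Ms4a1, every other member is named once or more, and from each other list for at most the 3 called genes with the largest change at 162 µg. The other genes named, Eomes, Cxcl13, Tnfsf13b, Irf4 and Derl3, were chosen after their values were seen. The result of 1 gene of the other lists is not reported here. The alternatives were other normalizations, channels, filters, probes, slide terms and single mice left out. Leaving out the 4 arrays with the fewest probes above background was added after seeing the data.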

Additional observations from a re-analysis of the deposited data

Results flagged for a closer look

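Within a dose group, 2 single mice lay far from the others among 48 groups of 4 to 6 values examined for the 12 genes with values per mouse, and chance flags about 1 in 20 such groups. Blnk in 18 µg replicate 1 was at a log2 ratio of -0.91 against -2.11 in the nearest of the 6 mice, a gap of 0.736 of the group's range. Vpreb3 in 18 µg replicate 3 was at 4.33 against 3.15 in the nearest, a gap of 0.651 of the range.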

How the results depend on the processing

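Each of the 9 genes called lower at 162 µg stayed lower under all alternatives. Without normalization every call was lost, while the changes lay between -1.92 and -0.78. Of 17 alternatives, calls were lost in 1 for Vpreb3, Cr2 and Spib, 2 for Cd72, 3 for Blnk and Ms4a1, 6 for H2-Ob, 7 for Fcrla and 9 for Bach2. The alternatives without the filter on dim probes and without the fold threshold only loosen the rule. No call could be lost there, so the 17 are not all trials of a call. The causes were not tested. On 162 µg replicate 4 only 25 of 32 member probes were above the background limit.

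The number called lower at 162 µg against control (9) was 3 with median centring, 0 without normalization and 5 with the Cy5 channel alone. Against 18 µg (11) it was 1 and 0 with the first 2 of these. The number called higher at 18 µg (1) was 0 with median centring, without normalization, with Cy5 alone, without a slide term, with the replicate block and with only the 2 groups compared. The number called lower at 18 µg (0) was 1 with Cy5 alone and 1 without the 4 arrays with the fewest probes above the limit. At 54 µg against control (0) it was 1 with only the 2 groups compared and 2 without those 4 arrays. At 54 µg against 18 µg (1) it was 2 with quantile normalization, and 0 with median centring, without normalization, with slide as a random block, without a slide term, with the replicate block, with only the 2 groups compared and without those 4 arrays. Without normalization the member median was -0.25 at 18 µg, 0.11 at 54 µg against 18 µg, -0.29 at 162 µg against 18 µg and -0.37 at 162 µg against 54 µg.

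Some uncalled changes turned sign, among them those of Cd79b (0.42) and Spib (0.39) at 18 µg. At 18 µg, with Cy5 alone, the change was 0.12 for Cr2, 0.095 for Cd72, 0.092 for Blnk and 0.17 for H2-Ob. With quantile normalization it was 0.011 for Cr2, 0.027 for Cd72 and 0.076 for H2-Ob. Cd79b had -0.010 with median centring and -0.17 without normalization, where Spib had -0.096. Blnk had 0.094 with only the 2 groups compared and 0.038 without those 4 arrays. Cd72 had 0.0034 with normexp, 0.060 in the deposited table, 0.0032 with slide as a random block, 0.010 without a slide term, 0.0019 with the replicate block and 0.018 over all its probes. Pou2af1 at 162 µg had -0.17 with median centring, -0.19 without normalization, -0.011 with quantile normalization, -0.14 with Cy5 alone, -0.0029 with slide as a random block, -0.075 without a slide term and -0.11 with the replicate block.

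With single mice left out, the number called lower ranged from 5 to 11 at 162 µg against control, 0 to 1 at 18 µg (1 without 54 µg replicate 5 or 162 µg replicate 6), 0 to 2 at 54 µg (2 without 54 µg replicate 5) and 0 to 3 at 54 µg against 18 µg (3 without 18 µg replicate 1, and 2 without control replicate 1 or 4, 54 µg replicate 1 or 162 µg replicate 4 or 6). The number called higher at 18 µg ranged from 0 to 2 (2 without control replicate 2 or 162 µg replicate 4). The change at 18 µg ranged from -0.13 to 0.11 for Cd72, -0.16 to 0.047 for Blnk and -0.43 to 0.072 for H2-Ob, and that of Pou2af1 at 162 µg from -0.044 to 0.20.

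Whether replicate numbers pair the mice is not stated in the labels, and they were not taken as pairs. Of 31 same-numbered pairs 20 had correlated deviations above 0.1 (median 0.17, lowest -0.17). Of 150 differently numbered pairs 40 did (median -0.06), and 12 of 22 samples correlated best with their own number. Of 24 pairs on the same slide 20 exceeded 0.1 (median 0.26). Some pairs shared both number and slide, and the part of each was not tested. The replicate block gave 8 members lower at 162 µg against control and 10 against 18 µg.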
